A study of Mus musculus with 4 samples.

Results

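Programmed cell death and cell survival genes were followed in mouse long-term haematopoietic stem cells (LT-HSCs), rare bone marrow cells at the head of the blood lineages. The set held 8 genes, Bcl2, Bok, Casp8, Cflar, Fasl, Traf2, Traf5 and Dedd, taken by symbol from the BCL2, death receptor and TRAF families, out of 4167 genes in the complete lines of the table. All 8 were found, all 8 passed the filter on low values, and 1199 genes passed it in all. The table ran through chromosome 1 and the start of chromosome 2, so the other members of these families were mostly outside it.

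Death by apoptosis is reached by a mitochondrial and a death receptor route. In the mitochondrial route BCL2 keeps the pore formers BAX and BAK in check, while BOK is a pore former of the same family that is thought to escape this control. In the death receptor route the ligand FASL binds its receptor, caspase-8 is activated on the receptor complex, c-FLIP (the product of Cflar) blocks that activation, and the adaptors TRAF2 and TRAF5 carry TNF receptor signals towards NF-kB and survival. DEDD is a death effector domain protein found mainly in the nucleus. BCL2 overexpression is known to enlarge the stem cell pool of mice.

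The groups were 2 libraries of wild-type mice (WT) and 2 of conditional knockout mice lacking Atf4 (ATF4 KO), which encodes the main transcription factor of integrated stress signalling. The study asked about the ageing-like loss of stem cell function without ATF4. All were polyadenylated RNA of flow-sorted LT-HSCs from tibia and femur, prepared by a method derived from Smart-seq2 for very small amounts of RNA. The Cre driver, the deleted exons, and the age, sex and strain of the mice were not given in the sources used here. Nor was it stated whether each library came from a separate animal, so p-values measure at most the spread between these libraries, which may be technical.

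The deposited values were log2 numbers shrunk towards each gene's mean, and the whole reads behind them were recovered for 1912 of the 1928 genes with a value, including all 8 members. The WT libraries held 1011863 and 828382 recovered reads and the ATF4 KO libraries 40846 and 49844. These sums, called total reads below, cover only the genes with recovered reads, on chromosome 1 and the start of chromosome 2, not the whole library. The size factors, the numbers each library's reads are divided by to make normalised reads, were much further apart, at 21.7 and 17.2 against 0.0360 and 0.0372. Scaling by size factors therefore gave an ATF4 KO to WT ratio 26.2-fold higher than scaling by total reads, a shift of 4.71 on the log2 scale that applied to each gene, and both scalings are given below. In ATF4 KO, 52.7% and 51.2% of the reads lay in the 10 top genes of the library, against 13.2% and 14.1% in WT. Only 2 of the 12 fixed LT-HSC markers were in the table. Slamf1, a defining marker of LT-HSCs, had 362 and 186 reads in WT and 0 in both ATF4 KO libraries. Gfi1b had 1579 and 1225 in WT and 0 in both ATF4 KO libraries. Of 4 fixed markers set as absent or low in LT-HSCs, Cd34 and Cd48 were in the table. Cd34, the top gene of WT 1, had 18288 and 15275 reads in WT and 9 and 8 in ATF4 KO. Cd48 had 1983 and 2511 in WT and 2 and 2 in ATF4 KO. The purity of the WT cells was not tested. The 7 myeloid markers reported here summed to 0.311% and 0.361% of WT reads and 3.85% and 1.81% of ATF4 KO reads. Of these, Fcgr2b, Fcgr4, Cxcr2, Cxcr1 and Cd244a had 0 reads in both ATF4 KO libraries and Fcgr3 had 2 and 0, while Fcer1g had 1083 and 982 reads in WT and 1569 and 901 in ATF4 KO. The 5 T and NK cell markers and the 4 B cell markers in the table, among them Cd28 and Cd55, had 0 reads in ATF4 KO. So did 1399 of the 1912 genes with recovered reads, so a marker at 0 does not by itself show which cells were absent. The part of these differences in the results below was not tested. Atf4 itself lies on chromosome 15 and was not analysed here, so the knockout labels could not be checked on the targeted gene.

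In WT LT-HSCs the initiator caspase Casp8 stood highest of the set when reads were set against exon length, and the ligand Fasl lowest. Casp8 had 57.8 and 55.4 normalised reads per kb of exon in WT libraries 1 and 2, and Traf2 had 15.4 and 15.0. Bcl2 followed with 7.86 and 8.47. The pore former Bok had 4.13 and 4.85, and Cflar, which encodes the caspase-8 inhibitor, had 4.06 and 3.38. Traf5 had 2.35 and 1.99, Dedd 0.738 and 0.905, and Fasl 1.43 and 0.150. Neighbours in this order did not overlap between the WT libraries, except Dedd and Fasl, whose ranges did, and the ranges of Bok and Cflar nearly touched. The length is that of all annotated exons of a gene joined, 12669 bases for Cflar against 2893 for Casp8, so the level of a gene read mostly from a short isoform is understated on this scale.

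**Figure D1:**
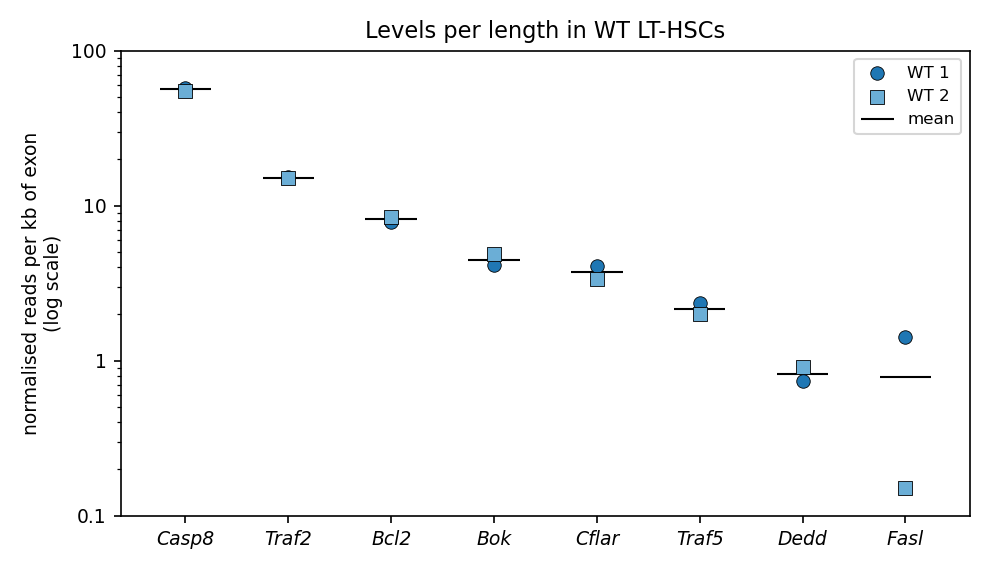
Normalised reads per kb of joined exon (log scale) for the 8 genes in the WT libraries, with a bar at the mean. Casp8 averaged 56.6 and Dedd and Fasl averaged 0.822 and 0.788, and Fasl is the only gene of the 8 whose libraries lie far apart.

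The exact 95% interval of the ratio of normalised reads, WT 1 over WT 2, included 1 for 5 of the 8 genes, Bok, Casp8, Dedd, Traf2 and Traf5. For Bcl2 the ratio was 0.929, with an upper bound just under 1. Cflar was higher in WT 1, with a ratio of 1.20 (1.09 to 1.32). Fasl differed most, with 60 reads in WT 1 and 5 in WT 2, a ratio of 9.48 (3.84 to 30.2). These intervals cover counting error only, and the reads had no molecular identifiers.

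**Figure D2:**
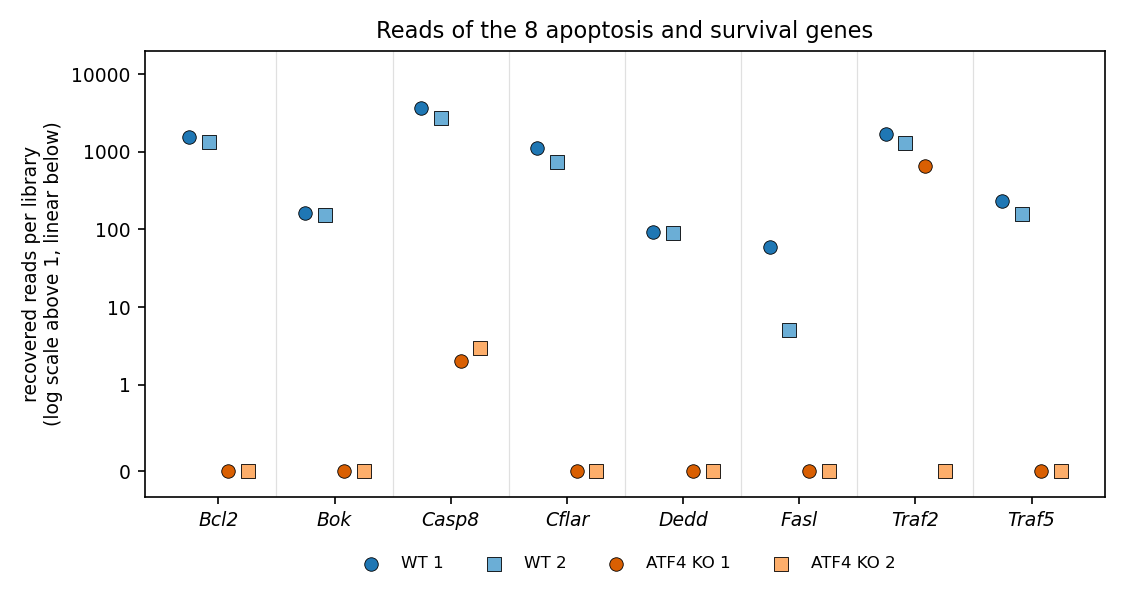
Recovered reads of each gene in each of the 4 libraries (log scale above 1, linear below), circles for replicate 1 and squares for replicate 2. In ATF4 KO, 6 of the 8 genes are at 0 in both libraries, Casp8 is at 2 and 3, and Traf2 is at 655 in one library and 0 in the other.

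Both genes of the set that directly restrain apoptosis, Bcl2 and Cflar, were lower in ATF4 KO on the deposited scale. Bcl2 (ENSMUSG00000057329.7, GRCm38 chromosome 1, 106538178 to 106714274, minus strand) encodes the founding inhibitor of mitochondrial apoptosis. It had 1564 and 1330 reads in WT and 0 in both ATF4 KO libraries, and the groups did not overlap. Its deposited values were 6.01 and 6.11 in WT and 3.02 and 2.99 in ATF4 KO, a difference of -3.06 ± 0.191 (SE, 2 libraries a group; limma, adjusted p = 0.00297). With 0 reads in both, the ATF4 KO values were placed by the transform and had an SD of 0.0234, against 1.39 over all tested genes. For the 6 members at 0 in both ATF4 KO libraries, the limma SE and p-values thus include no measured spread between those libraries. At the WT level, 5.47 reads would be expected over both ATF4 KO libraries by size factors and 143 by total reads. A count of 0 was taken to allow at most 3 reads over the pair. On that limit Bcl2 was at least 1.82-fold lower per size factor and at least 47.6-fold lower per total reads. The exact 95% Poisson interval of observed over expected reads is wider than that limit. For Bcl2 it reached up to 0.675 per size factor and 0.0258 per total reads, both below 1 for counting error alone. In bulk libraries, fewer cells that carry a transcript and less of it in each cell cannot be told apart. An exon of Bcl2 overlaps one of D630008O14Rik on the other strand, and whether counting used strand is not given in the sources used here.

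Cflar (ENSMUSG00000026031.15, chromosome 1, 58711508 to 58758884, plus strand) had 1116 and 735 reads in WT and 0 in both ATF4 KO libraries. The groups did not overlap here either. Its deposited values were 5.50 and 5.27 in WT and 2.93 and 2.90 in ATF4 KO, a difference of -2.47 ± 0.155 (limma, adjusted p = 0.00297). The expected reads were 3.44 by size factors and 90.3 by total reads. Against the limit of 3 reads, Cflar was at least 30.1-fold lower by total reads, and the bound by size factors was 1.15-fold. The exact 95% Poisson interval of observed over expected reads reached up to 1.07 by size factors and 0.0409 by total reads. By size factors that interval includes no change, so the count of 0 alone does not show a decrease of Cflar at that scaling. Bcl2 and Cflar were past the threshold by limma's voom on the reads under both scalings. Without ATF4 KO 1 and without ATF4 KO 2 the differences were -3.07 and -3.04 for Bcl2 and -2.49 and -2.45 for Cflar. Both libraries had 0 reads of each gene, so this likeness was fixed in advance and is no sign of robustness. Without WT 1 and without WT 2 they were -3.10 and -3.01 for Bcl2 and -2.35 and -2.59 for Cflar.

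Casp8 (ENSMUSG00000026029.14, chromosome 1, 58795374 to 58847503, plus strand), whose protease c-FLIP holds back, lies 36489 bases beyond the end of Cflar on the same strand. It was the only gene of the set with reads in all 4 libraries, 3634 and 2748 in WT and 2 and 3 in ATF4 KO. Its deposited values were 7.31 and 7.25 in WT and 5.97 and 6.40 in ATF4 KO. Both ATF4 KO values lay below both WT values, but the difference of -1.10 ± 0.438 did not pass the threshold (limma, adjusted p = 0.152). It passed without ATF4 KO 1 (-0.88, limma, adjusted p = 0.00480) and without ATF4 KO 2 (-1.31, limma, adjusted p = 0.00177), fits in which the lone library is assumed to vary like the others. It did not pass without WT 1 (-1.07 ± 3.61, limma, adjusted p = 0.874) or without WT 2 (-1.12 ± 3.88, limma, adjusted p = 0.878). The 5 ATF4 KO reads were 0.418 of the 11.97 expected by size factors (exact 95% Poisson interval 0.136 to 0.975) and 0.0160 of the 313 expected by total reads (0.00518 to 0.0373). Both intervals lie below 1 for counting error alone.

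Traf2 (ENSMUSG00000026942.13, chromosome 2, 25517982 to 25546940, minus strand), an adaptor and ubiquitin ligase partner of TNF receptors, was the only gene of the set with many reads in ATF4 KO, and they came from 1 library. It had 1702 and 1313 reads in WT, 655 in ATF4 KO 1 and 0 in ATF4 KO 2. The ATF4 KO libraries thus lay on both sides of WT, and the WT libraries were alike. In ATF4 KO 1, Traf2 was 1.60% of all recovered reads and ranked 19 among the genes, against 0.168% and 0.159% in WT. Its reads there were 235-fold the number expected by size factors and 9.82-fold the number expected by total reads. The deposited values were 7.97 in each WT library, 11.56 in ATF4 KO 1 and 7.59 in ATF4 KO 2. The difference of 1.61 ± 1.74 did not pass the threshold (limma, adjusted p = 0.490). Its direction was that of 1 library: without ATF4 KO 1 it was -0.38 and without ATF4 KO 2 it was 3.59. With 0 reads, the value of ATF4 KO 2 was placed by the transform. It was shrunk towards a mean that includes ATF4 KO 1, so the -0.38 is not free of that library.

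Such a split between the ATF4 KO libraries was common over the whole table. Of 92 genes with at least 100 reads in either ATF4 KO library, Traf2 among them, 44 had 0 reads in the other and 81 were over 10-fold apart or at 0 in one. Between the WT libraries 3 of the 92 were over 2-fold apart. Over the tested genes the SD between libraries of a group was 0.185 in WT and 1.39 in ATF4 KO, on the deposited scale.

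Traf5 and Bok were lower in ATF4 KO on the deposited scale, by small amounts and with few reads expected. Traf5 (ENSMUSG00000026637.13, chromosome 1, 191997205 to 192092559, minus strand), a second adaptor of TNF family receptors, had 233 and 156 reads in WT and 0 in both ATF4 KO libraries. Its deposited values were 3.19 and 3.05 in WT and 2.63 and 2.60 in ATF4 KO, without overlap, a difference of -0.50 ± 0.0669 (limma, adjusted p = 0.0137). Without ATF4 KO 1 and without ATF4 KO 2 the differences were -0.51 and -0.49, and Traf5 missed the threshold without ATF4 KO 2. Both libraries had 0 reads of Traf5, so this likeness was fixed in advance. Some of its exons overlap Mir3473c on the same strand and Gm26879 on the other.

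Bok (ENSMUSG00000026278.14, chromosome 1, 93685660 to 93695764, plus strand) had 165 and 153 reads in WT and 0 in both ATF4 KO libraries. Its deposited values were 2.82 and 2.93 in WT and 2.57 and 2.55 in ATF4 KO, again without overlap. The difference was -0.32 ± 0.0541 (limma, adjusted p = 0.0241). It missed the threshold with no trend in the prior (limma, adjusted p = 0.0619) and with a replicate block (limma, adjusted p = 0.0807). It also missed it without ATF4 KO 1 and without ATF4 KO 2, at differences of -0.33 and -0.31. Both libraries had 0 reads of Bok, so the likeness of these differences was fixed in advance. By size factors only 0.725 reads of Traf5 and 0.604 of Bok would be expected over both ATF4 KO libraries, so a decrease was not detectable at that scaling, and by voom with size factors both had the opposite sign. By total reads 18.98 and 15.8 would be expected. Against the limit of 3 reads the bounds, for counting error alone, were 6.33-fold lower for Traf5 and 5.26-fold lower for Bok.

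Dedd and Fasl did not pass the threshold. Dedd (ENSMUSG00000013973.12, chromosome 1, 171329145 to 171342331, plus strand) had 94 and 91 reads in WT and 0 in both ATF4 KO libraries, yet its deposited values were nearly level, 2.25 and 2.33 in WT and 2.31 and 2.30 in ATF4 KO. The groups overlapped, and the difference was 0.017 ± 0.0352 (limma, adjusted p = 0.703). Without WT 2 it was 0.055 (limma, adjusted p = 0.0319), and without WT 1 it was -0.021 (limma, adjusted p = 0.434). By size factors 0.352 reads were expected, and by total reads 9.19, against which the bound for counting error alone was 3.06-fold lower. Part of Dedd overlaps an exon of Nit1 on the other strand.

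Fasl (ENSMUSG00000000817.10, chromosome 1, 161780689 to 161788495, minus strand), the ligand that T and NK cells use to kill, had 60 and 5 reads in WT and 0 in both ATF4 KO libraries. Its deposited values were 1.59 and 1.53 in WT and 1.63 and 1.63 in ATF4 KO, so the libraries with 0 reads held the higher values. The difference was 0.07 ± 0.0253 (limma, adjusted p = 0.128). It passed, in the same direction, without WT 1 (0.10, limma, adjusted p = 3.4e-05) and without WT 2 (0.04, limma, adjusted p = 0.000112). With 0.112 reads expected by size factors and 2.96 by total reads, both under the limit of 3, a decrease was not detectable at this depth. The 5 T and NK cell markers, among them Cd247 and Icos, summed to 287 reads in WT 1 and 136 in WT 2. Their part in the gap of Fasl between the WT libraries was not tested.

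**Figure D3:**
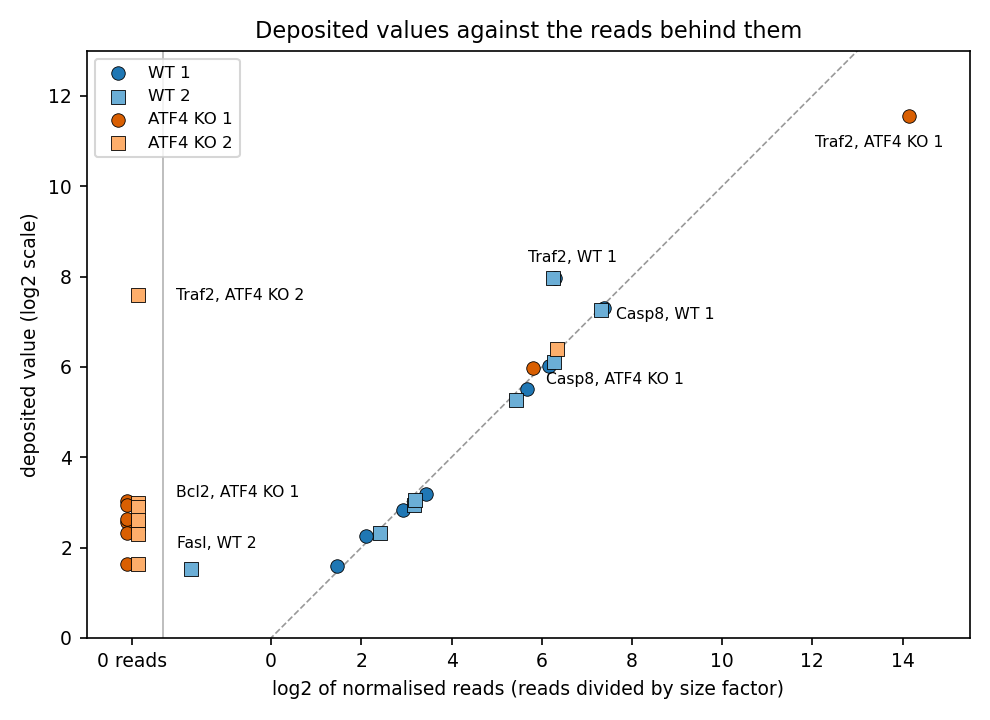
Deposited value (log2 scale) against log2 of normalised reads for the 8 genes in the 4 libraries, with libraries at 0 reads on the left (ATF4 KO 1 and 2 side by side) and a dashed line of equality. Values at 0 reads run from 1.63 for Fasl to 7.59 for Traf2, so a value by itself does not show that reads were present.

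For Bcl2 in WT and Casp8 in all libraries the deposited values lay near the reads, but for Traf2 they did not. Where a library had 0 reads, the value was placed by the transform. For Bcl2, log2 of normalised reads was 6.17 and 6.28 in WT, near the deposited 6.01 and 6.11. For Casp8 it was 7.39 and 7.32 in WT and 5.80 and 6.34 in ATF4 KO, against deposited values of 7.31, 7.25, 5.97 and 6.40. Traf2 departed most among the members' WT values apart from WT 2 of Fasl: log2 of its normalised reads was 6.29 and 6.26, while the deposited values were higher by 1.68 and 1.71. In ATF4 KO 1 log2 of its normalised reads was 14.15, against a deposited 11.56. For Fasl in WT 2 the corresponding log2 was -1.78, against a deposited value of 1.53.

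Of the 8 genes, 4 fell on the deposited scale (Bcl2, Cflar, Traf5 and Bok), 0 rose and 4 did not pass. Over all tested genes the shares were 22.4% lower and 24.6% higher, 47% in either direction. The median difference of the 8 was -0.41, against 0.02 over all tested genes. Both ATF4 KO values lay below both WT values for 5 of the 8 (40.7% of tested genes) and above them for 1, Fasl (40.5%). On normalised reads both ATF4 KO libraries lay below both WT libraries for 7 of the 8 (72.3% of genes), and on reads per total also for 7 (85.3%), Traf2 being the exception. Reads were 0 in both ATF4 KO libraries for 6 of the 8, against 57.2% of the 1183 tested genes with recovered reads. The genes called lower were nearly all such genes, 257 of 268, and so were those called higher, 283 of 295, with differences of at most 0.10 on the deposited scale.

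The split between higher and lower rested on the scaling. By voom on the reads with size factors, Bcl2 (-2.45, adjusted p = 0.0270) and Cflar (-1.77, adjusted p = 0.0349) were lower and Dedd, with 0 ATF4 KO reads, was called higher (1.49, adjusted p = 0.0336), where 6.17% of genes were called lower and 20.4% higher. By voom with total reads, 6 of the 8 were lower and 0 higher, with 46.6% and 0.93% of genes called so. Fasl and Traf2 passed in neither. A fitted fold of a gene with 0 reads depends on the count that voom adds and is no bound.

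**Figure D4:**
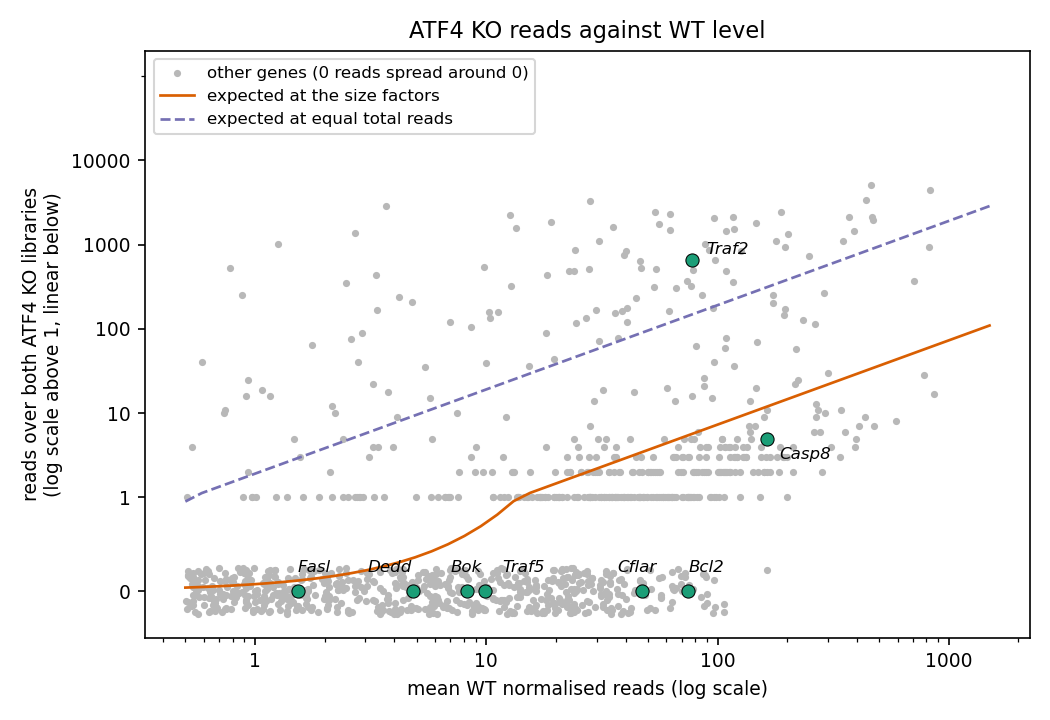
Reads summed over both ATF4 KO libraries (log scale above 1, linear below) against mean WT normalised reads (log scale) for genes above 0.5, with the 8 genes in green. The solid line gives the reads expected by size factors and the dashed line those expected by total reads; Casp8 lies below both lines and Traf2 above both.

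How unusual a count of 0 was depended on the WT level. Among genes with 30 to 100 normalised reads in WT, the class of Bcl2, Cflar and Traf2, 33.1% of 251 were at 0 in both ATF4 KO libraries. The median gene of that class had 1 ATF4 KO read. For the class of Casp8, 100 to 300, that share was 2.89% of 104, and the median gene had 4 ATF4 KO reads against 5 for Casp8. In the class of Bok, Traf5 and Dedd, 3 to 10, it was 81.3% of 192, and in the class of Fasl, under 3, it was 91.1% of 1109. The counts of 0 in Bok, Traf5, Dedd and Fasl are thus those of most genes at their level.

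Beyond the members, 6 lists of apoptosis and survival genes held 198 further genes, of which 24 were in the table and 19 were tested. Of the 19, 3 were called lower, 3 were called higher and 13 did not pass, with a median difference of -0.13. Over all tested genes 22.4% were called lower and 24.6% higher. The 3 pathway genes called lower were Parp1, a DNA break sensor that caspases cleave, Pea15a, a death effector domain protein, and Stradb, a pseudokinase partner of LKB1. Parp1 had 4077 and 3603 reads in WT and 0 and 1 in ATF4 KO (-3.22 ± 0.726, limma, adjusted p = 0.0485), and missed the threshold in 8 of the alternatives, among them each WT library left out. Pea15a had 662 and 447 reads in WT and 0 in both ATF4 KO libraries (-1.81 ± 0.108, limma, adjusted p = 0.00282). Stradb had 552 and 354, and 0 in both (-1.54 ± 0.118, limma, adjusted p = 0.00412). By size factors 2.07 reads of Pea15a and 1.68 of Stradb would be expected over both ATF4 KO libraries, under the limit of 3, so a decrease was not detectable at that scaling. By voom with size factors neither passed (-1.04, adjusted p = 0.0588, for Pea15a and -0.73, adjusted p = 0.0990, for Stradb).

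The 3 called higher had no read in ATF4 KO, so their values there were placed by the transform and do not show a rise. They were Tnfsf4, which encodes the OX40 ligand (0.09, 69 and 59 reads in WT), Traf3ip1, known mainly as a ciliary transport protein (0.09, 36 and 49 reads), and Endog, a mitochondrial nuclease (0.06, 14 and 31 reads). All 3 had the opposite sign by voom with total reads. Tnfsf18 and Serpinb2 were at 0 in all 4 libraries.

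By list, counting genes other than the members, the BCL2 family list had 2 tested genes, and neither passed. They were the mitochondrial fission receptor Mff and the chaperone partner Bag2, neither itself a BCL2 family member. The list of caspases and death domain proteins had 1 of 3 lower, Pea15a. Death receptors and TNF family genes had 1 of 2 higher, Tnfsf4, and the TRAF and NF-kB list 1 of 3 higher, Traf3ip1. Mitochondrial effectors and inhibitors had 1 lower, Parp1, and 1 higher, Endog, of 2. The p53 and stress list had 1 of 7 lower, Stradb. With 22.4% of all tested genes called lower and 24.6% higher, single calls in lists this short are no result about a list.

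The remaining pathway genes with high WT levels took 2 forms in ATF4 KO, and none passed the threshold. One form was a handful of reads, like Casp8. Rassf5, a RAS effector, had 4494 and 3110 reads in WT and 1 and 2 in ATF4 KO, Mff had 2284 and 1873 against 2 and 2, and Traf3ip3, an adaptor that binds TRAF3, had 2927 and 1750 against 3 and 0. The kinase gene Stk17b had 1208 and 843 against 1 and 2, and Bag2 had 710 and 605 against 1 and 0. Ikbke, a kinase of the NF-kB and interferon pathways, had 552 and 389 against 0 and 5. Unlike Casp8, the reads of Ikbke were above the 1.76 expected by size factors, though below the 46.0 expected by total reads. The other form was many reads in 1 ATF4 KO library, like Traf2. Tmbim1, a membrane protein linked to FAS signalling, had 2120 and 1617 in WT and 178 and 1 in ATF4 KO. Mdm4, an inhibitor of p53, had 606 and 546 against 1 and 167, and Btg2, a p53 target, had 821 and 631 against 0 and 77.

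The gene nearest to each member over the 4 deposited values, by Euclidean distance, mostly shared its reads as well. Bcl2 lay nearest to Odf2 (distance 0.0188 on the log2 scale, 1576, 1344, 0 and 0 reads), Cflar to Mia3 (0.106) and Casp8 to Sp100 (0.551, with 3688, 2380, 2 and 2 reads). Traf2 lay nearest to Upf2 (0.338), a factor of nonsense-mediated decay that had 550 and 391 reads in WT, 480 in ATF4 KO 1 and 0 in ATF4 KO 2. Traf5 lay nearest to Bmi1 (0.0155), a Polycomb gene, Bok to Gm7694 (0.0139), Dedd to Klhdc9 (0.0297) and Fasl to Efhd1 (0.0449), all with 0 reads in both ATF4 KO libraries. Likeness over 4 values in which the libraries fall into groups of 2 is a description only.

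ATF4 binds with C/EBP partners at composite elements, and the letters TGATGNAA of that element were looked for on both strands in the RefSeq promoter windows of GRCm38.p6, from 250 bases before to 50 after each start. All 8 members had windows, 11 in all, and 0 of the 11 held the letters, against 3.97% of 32851 windows. This says only that these letters are not in these windows.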

How the data were processed

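Values came from 1 table with a log2 number per gene and library, deposited by the authors; HISAT2 2.2.1, featureCounts, DESeq2 and GRCm38 are named without roles per the submitters' processing notes. The transform was worked out from the numbers: a regularized logarithm, with a ridge weight of 0.1645 and fitted reads of at least 0.5. Solving it gave reads within 1.1e-05 of whole numbers for 1912 genes (largest residual 7.4e-10 log2), and the recovery was tested on simulated data. The last, incomplete line was left out. limma 3.58.1 (R 4.3.3, statmod 1.5.0; trend, robust) was fitted to the deposited values of genes that reached 1 in at least 2 libraries. Adjustment was by Benjamini and Hochberg over all 1199 tested genes (threshold 0.05). An exact permutation test of 2 against 2 cannot go below 0.333 and was not used. Expected reads are mean WT reads per size factor, or per total, times the ATF4 KO size factors or totals; intervals are 95% and cover counting error only. Coordinates and exon lengths are those of GENCODE M21. Samples were grouped by title. The members and gene lists were chosen with earlier results of these data known. Named genes are the members, listed pathway genes past the threshold, the 12 pathway genes of highest WT mean, and the gene nearest to each member. Alternatives were other filters and priors, a replicate block, each library left out and voom on the reads; voom with total reads and a fit on genes with an ATF4 KO read were added after the data were seen. Of the myeloid marker list, 1 gene in the table is not reported here.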

Additional observations from a re-analysis of the deposited data

How the results depend on the processing

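Bcl2 and Cflar kept their direction under each alternative in which they were tested, and their call under those with all 4 libraries. With 1 ATF4 KO library left out this was fixed in advance, as both libraries had 0 reads of each gene. The fit on genes with an ATF4 KO read left both genes out. The number of members called was 4, and was 2 (of 4 tested) with a mean value of at least 3 and 0 (of 2 tested) among genes with an ATF4 KO read, where fewer members were tested. It ran from 4 to 6 with 1 library left out. Over all tested genes the number called was 563, and was 1315 with no filter, 233 with a mean value of at least 3, 291 with no trend in the prior, 314 by voom with size factors, and from 634 to 884 with 1 library left out. Among genes with an ATF4 KO read limma called 0, with 76 at an unadjusted p under 0.05. Of the other pathway genes 6 were called, and 2 with a mean value of at least 3, 3 with no trend in the prior, 3 by voom with size factors (0 lower and 3 higher, against 3 and 3), 11 by voom with total reads (11 lower and 0 higher), 0 among genes with an ATF4 KO read, and from 6 to 13 with 1 library left out. The cause of these shifts was not tested.

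Several differences changed sign. By voom with size factors Bok was at 0.72, Traf5 at 0.48 and Stk17b at 0.035. By voom with total reads Dedd was at -3.21, Fasl at -0.55, Traf2 at -1.05, Tmbim1 at -1.89, Mdm4 at -1.35, Btg2 at -2.32, Ikbke at -3.54, Tnfsf4 at -2.67, Traf3ip1 at -2.11 and Endog at -1.21. With 1 library left out, Traf2 ran from -0.38 (without ATF4 KO 1) to 3.59 and Tmbim1 from -0.61 (without ATF4 KO 1) to 3.64. Btg2 ran from -1.24 (without ATF4 KO 2) to 4.20 and Ikbke from -1.52 (without ATF4 KO 2) to 2.2. Stk17b ran from -0.74 to 0.023 (without ATF4 KO 1) and Dedd from -0.021 (without WT 1) to 0.055. For the negative values of Traf2, Btg2 and Ikbke the ATF4 KO library that remained had 0 reads, so its value was placed by the transform.

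The libraries of the 2 genotypes share replicate numbers only, and deviations of same-numbered libraries correlated at -0.0760 over 1199 tested genes. With the replicate number as a block, 510 genes, 3 members (without Bok) and 3 of the other pathway genes were called. Depth limits Dedd, Fasl, Bok and Traf5 most: by size factors under 1 read of each was expected over both ATF4 KO libraries.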

Other observations

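Some genes outside the apoptosis lists, chosen after their values were seen, had more reads in a single ATF4 KO library than in either WT library, and 0 in the other ATF4 KO library. Igfbp2, which encodes an IGF binding protein, had 6 and 5 reads in WT, 1606 in ATF4 KO 1 and 0 in ATF4 KO 2. The coagulation factor gene F5 had 23 and 25 in WT, 1012 in ATF4 KO 1 and 0 in ATF4 KO 2. Camsap1, a microtubule minus-end protein gene, had 87 and 58 in WT, 0 in ATF4 KO 1 and 2856 in ATF4 KO 2. Iars2, the mitochondrial isoleucyl-tRNA synthetase gene, had 542 and 538 reads in WT, 3296 in ATF4 KO 1 and 0 in ATF4 KO 2.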
